A study of Mus musculus with 12 samples.

Results

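The comparison described here is dox-labelled against no-dox nuclear RNA of mouse embryonic stem cells (ESC), read across genes of all functions. Its members are the 9395 genes, of 19716 in the deposited table, whose group mean was at least 1 RPKM (reads per kilobase of transcript and M mapped reads) in either nuclear column. Every group is the same kind of cell: ESC with an HA-Flag-AGO2 transgene that doxycycline (dox) switches on, so the controls carry the transgene too. The cells were at passage 8 to 15 and grew on gelatin with leukemia inhibitory factor. The dox-labelled groups had 2.5 ug/ml dox for 15 h and the others had none, and libraries were made of nuclear RNA, after fractionation, and of RNA of unfractionated cells (total RNA). The labels list 3 libraries in each of the 4 groups, depleted of ribosomal RNA, and do not say whether those came from separate cultures, so p-values here measure the spread between libraries, which may be technical. The labels do not name the parent line, the promoter or the number of clones.

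AGO2 is an Argonaute protein, which binds miRNAs and small interfering RNAs. In the cytoplasm Argonaute complexes pair with messenger RNAs and lower their translation and stability, and Argonaute proteins have also been found in nuclei. ESC have a short cell cycle and make much of the machinery for growth, translation and division.

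The table holds group means on the log2(RPKM + 0.001) scale and no value of a single library, so each gene has 1 value per group and no SD of its own. The spread recovered from the authors' p-values is that of 10 libraries: 3 with the dox label and 2 without in nuclear RNA, 2 and 3 in total RNA. Depth recovered from the lowest values was 10.3 to 11.2 M reads in the dox-labelled nuclear libraries and 15.6 and 18.9 M reads in the others, and every dox-labelled library, total RNA included, was shallower than any without dox. All 10 ESC markers reached 1 RPKM, with summed levels under the deposited scaling of 2536 RPKM with the dox label and 902 RPKM without. Of the markers of fibroblast feeder cells, primitive endoderm, mesoderm and 2-cell-like cells none reached 1 RPKM in nuclear RNA. Their summed levels were 0.691 and 0.334 RPKM for feeder cells, 0.433 and 0.261 RPKM for primitive endoderm, 0.0413 and 0.532 RPKM for mesoderm and 0.190 and 0.632 RPKM for 2-cell-like cells (dox-labelled value first). Of 6 trophectoderm and 4 neuroectoderm markers 1 and 2 reached it, and their summed levels were 4.39 and 2.27 RPKM for trophectoderm and 33.9 and 7.39 RPKM for neuroectoderm, in the same order. The part of such cells in the results was not tested. Malat1, a long RNA known to stay in nuclei, was not higher in the nuclear than in the total column: the ratio of nuclear to total RPKM was 0.738 without dox and 0.551 with the dox label. The same ratio without dox was 1.38 for Meg3 and 1.07 for Kcnq1ot1, long RNAs also known from nuclei, and 0.701 for Actb and 0.702 for Eef1a1, which code for proteins. With the dox label it was 0.953, 0.895, 0.794 and 0.713 in that order. Other genes overlapped. Neat1 and Xist, also long RNAs known from nuclei, had ratios of 0.909 and 0.954 without dox and 0.615 and 0.597 with the dox label. Further genes that code for proteins ran from 0.532 for Nanog to 0.951 for Dppa4 without dox. With the dox label these ran from 0.578 for Nanog to 0.984 for Gapdh.

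The targeted gene went against its label. Ago2 had 8.65 RPKM in the no-dox and 2.39 RPKM in the dox-labelled nuclear column, a log2 difference of -1.85 (SE 0.166, limma adjusted p = 2.28e-07), and in total RNA 9.12 against 3.43 RPKM. Whether reads of the transgene count toward this gene is not given in the sources used here. In what follows, higher and lower always refer to the libraries labelled dox against those labelled no dox, and no statement assumes which of them made more AGO2. Depth and the label also move together, and the part of depth in the differences was not tested. In bulk RNA, fewer cells of a type and less RNA per cell cannot be told apart.

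Most of the genes changed. At an adjusted p below 0.05 (limma, Benjamini-Hochberg over all 9395 genes) 4329 genes rose (46.1%) and 2467 fell (26.3%), so that 72.3% changed and 2599 did not pass. Of the tested genes 2563 (27.3%) rose and 1442 (15.3%) fell at least 2-fold, and 462 rose and 411 fell at least 4-fold. The median log2 difference over all genes was 0.34, with quartiles of -0.54 and 1.08. The median SE of a gene's log2 difference was 0.180, so a typical quartile gene lay several SE from 0. Rising genes made up 63.7% of the calls. That split depends on the scaling: it was 49.3% once the median of all genes was set to 0, 53.2% after quantile normalization of the columns, 79.5% after removal of trends on exon length and GC content, and 81.5% among genes of at least 5 RPKM. In number, 7605 genes reached 1 RPKM in both nuclear columns, 592 in the dox-labelled column alone and 1198 in the no-dox column alone. Those 1 column alone admits had to differ by the way they were chosen. They are counted in the totals over all genes and lists. For some lists and classes on which they weigh, the value over genes at 1 RPKM in both columns is given beside it. Where it is not given, the counts hold such genes too. Just inside the limit was Olfr26, at 0.999 RPKM without dox and 0.00483 with the dox label (adjusted p = 0.0576). Just outside was 2400006E01Rik, at 0.998 and 0.449 RPKM. Of all members 13 were listed at 0 in the dox-labelled column and 0 in the no-dox column, and no fold is given for those.

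The size and sign of the difference went with how much of an RNA there was. Genes with a mean of 1 to 2 RPKM over the nuclear columns had a median log2 difference of -0.11, with 559 called higher and 769 lower of 2284. At 4 to 8 RPKM the median was 0.63 (1106 higher, 311 lower of 1833), and at 16 to 32 RPKM it was 1.20 (367 higher, 55 lower of 476). Tiers double in width, and from 64 RPKM to double that the median was 1.87 (79 higher, 5 lower of 90). In the highest tier, above that, it reached 2.12, with 104 genes called higher and 3 lower of 114. The 932 genes under 1 RPKM are each a member through 1 column only and had to differ, so their median is not part of this order. Grouping the same genes by their total RNA columns gave the same order, from -0.21 at 1 to 2 RPKM to 2.03 in the highest tier. This grouping is not independent of the nuclear difference. The total columns carry the same labels, and their log2 differences went with the nuclear ones across genes (Pearson r 0.875). In both groupings the tiers from 1 RPKM up still hold some genes that 1 nuclear column alone admits and that had to differ. Quantile normalization, which gives all columns one distribution, left medians between 0.07 and 0.28 over the tiers from 1 RPKM up, 0.07 in the lowest of them and 0.11 in the highest.

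**Figure D1:**
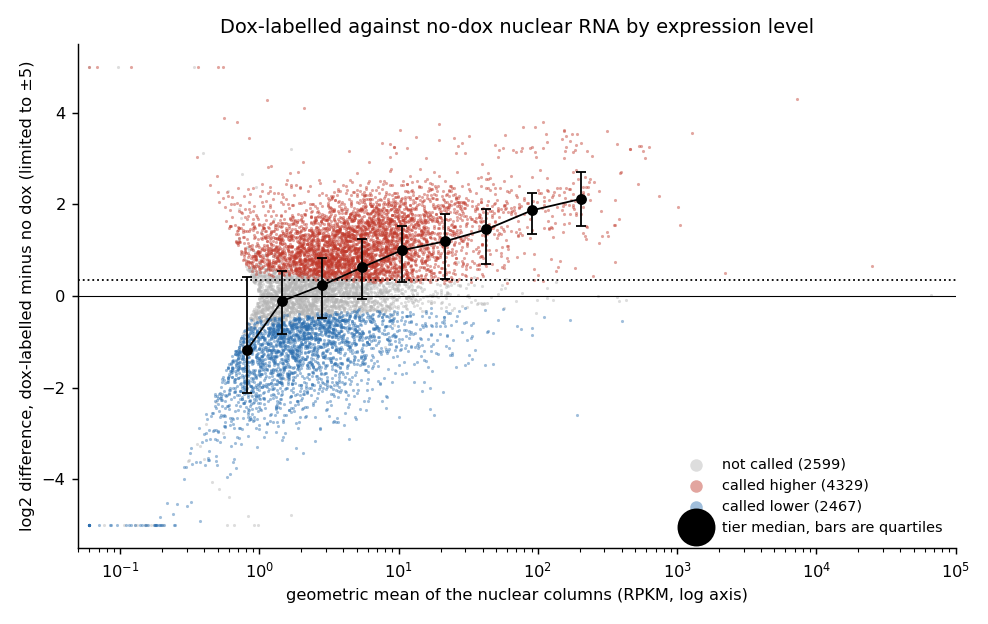
Each point is 1 of the 9395 genes, with the geometric mean of the nuclear columns (RPKM, log axis) on the x axis and the log2 difference on the y axis; values past the axis limits are drawn at the edge. Black circles are tier medians with quartile bars, which run from -0.11 at 1 to 2 RPKM to 2.12 in the highest tier under the deposited scaling and from 0.07 to 0.11 for the same tiers after quantile normalization. The leftmost circle, under 1 RPKM, holds genes that 1 column alone admits and that had to differ; the dotted line is the median of all genes, 0.34.

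The most abundant RNAs of the nuclear columns were small structured RNAs and the ribosomal precursor, and they did not move together. Rn45s, the precursor of ribosomal RNA that the library kit depletes, had 65937 RPKM without dox and 66594 with the dox label (log2 difference 0.01, SE 0.171, adjusted p = 0.946). Rmrp, the RNA of RNase MRP, rose from 19801 to 31374 RPKM, by 0.66 (SE 0.146). Rpph1, the RNA of RNase P, rose from 1624 to 32210 RPKM, by 4.31 (SE 0.132, adjusted p = 2.01e-11). Rprl3, a related RNA, rose from 372 to 4387 RPKM, and Scarna2, a guide RNA of Cajal bodies, from 1851 to 2603 RPKM. After quantile normalization the differences of Rmrp and Scarna2 turned to -1.68 and -2.19, and they were below 0 as well once trends on exon length were removed.

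Among genes of at least 1 RPKM in both nuclear columns, and outside the histone, ribosomal protein, long noncoding and small RNA lists, predicted genes and pseudogenes, the largest rises were in genes of metabolism, translation and the cytoskeleton. Gstp1, a glutathione transferase that detoxifies electrophiles, rose from 14.4 to 107.2 RPKM, 7.42-fold (log2 2.89, SE 0.122, adjusted p = 2.36e-10). Arf5, a small GTPase of vesicle traffic, rose from 5.39 to 37.1 RPKM. Pfn1, the actin-binding profilin, rose from 70.1 to 459 RPKM, and Tuba1c, an alpha-tubulin, from 7.91 to 48.3 RPKM. Eif3i and Eif3f, subunits of the initiation factor eIF3, went from 6.99 to 45.8 and from 15.8 to 95.8 RPKM. Of enzymes, Tpi1 of glycolysis rose from 17.4 to 112 RPKM and Grhpr, a glyoxylate reductase, from 1.98 to 12.8 RPKM. The log2 differences of these 8 genes lay between 2.602 and 2.891, with SEs of 0.106 to 0.144. Lars2, the mitochondrial leucyl-tRNA synthetase, and Ubald2 had log2 differences of 3.23 and 3.17, the highest 2 values, with the widest SEs of the 10, 0.612 and 0.481. In total RNA Lars2 did not pass (log2 1.13, adjusted p = 0.116).

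The largest falls, under the same exclusions and with at least 1 RPKM in both nuclear columns, were mostly in very long genes and zinc finger genes. Atrx, a chromatin remodeller of heterochromatin, fell from 12.5 to 1.94 RPKM (log2 -2.68, SE 0.169, adjusted p = 7.09e-09). Nipbl, which loads cohesin onto DNA, fell from 7.88 to 1.28 RPKM. The cytolinkers Macf1 and Dst, which tie microtubules to actin and intermediate filaments, fell from 44.0 to 7.29 and from 24.9 to 3.999 RPKM. Clk1, a kinase of splicing factors, fell from 8.80 to 1.32 RPKM and Bod1l, which protects stalled replication forks, from 9.27 to 1.37 RPKM. The zinc finger genes Zfp970, Zfp936 and Zfp980 fell to 1.29, 1.43 and 1.94 RPKM, from 8.65, 9.05 and 12.1 RPKM. Rex2 fell from 10.7 to 1.53 RPKM, which was the largest fall at -2.81 (SE 0.209). All 10 also fell in total RNA.

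**Figure D2:**
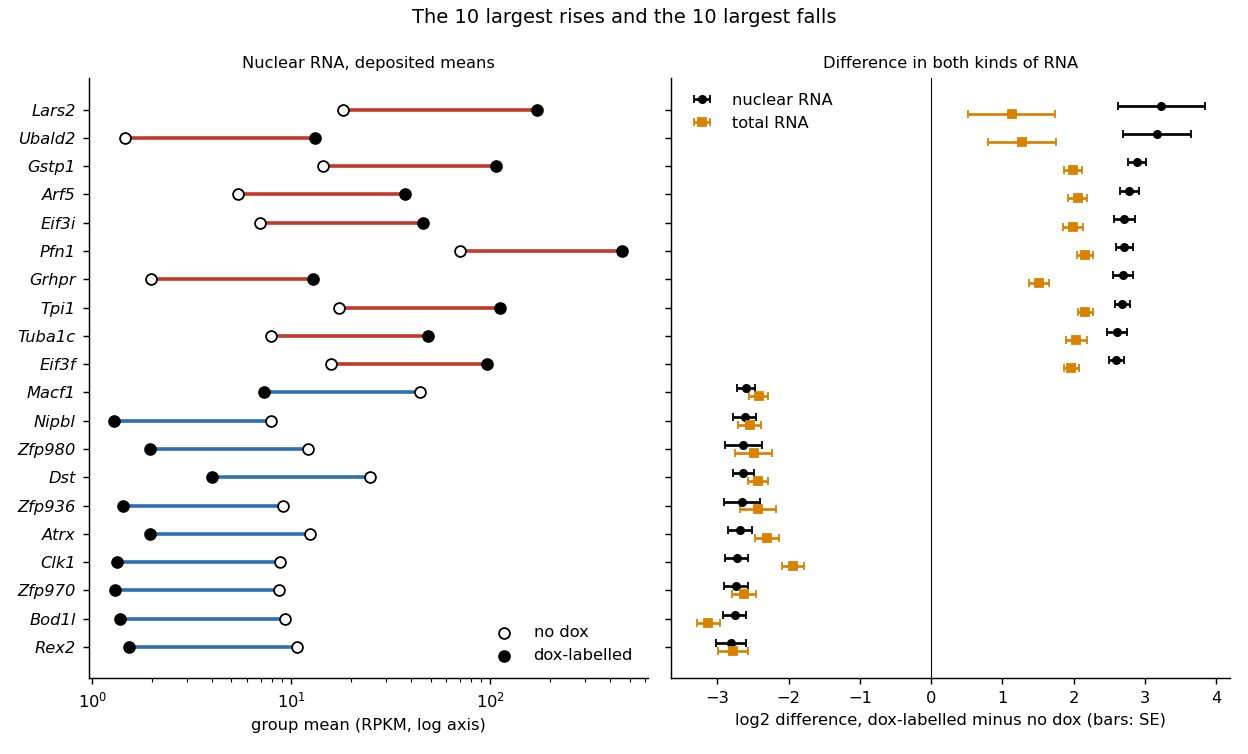
Left, deposited group means of the 10 largest rises and 10 largest falls in nuclear RNA (RPKM, log axis; open circles no dox, filled circles dox-labelled). Right, their log2 differences with SE in nuclear and in total RNA: the falls run from -2.59 to -2.81 in nuclear RNA. The rises are smaller in total RNA for all 10, such as 1.99 against 2.89 for Gstp1. So are the falls except that of Bod1l (-3.13 in total, -2.75 in nuclear RNA). The genes were chosen for large nuclear differences, so smaller ones in total RNA can follow from that choice alone.

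The genes that rose and those that fell tended to differ in the letters of their exons, with overlap. As an illustration, 120 bases from the middle of the coding sequence (longest coding transcript, GENCODE M21 on mm10) are printed for 2 genes of each kind. These 4 genes were chosen after their values were seen, and each G and C is in capitals. Other genes lie closer together. Over the longest transcript Eif3i, of the 10 largest rises, had 47.6% GC, and Dst, of the 10 largest falls, had 49.5%. The gene coordinates are chr19:4035407-4037985 (minus strand) for Gstp1, chr6:28423560-28426602 (plus) for Arf5, chrX:105797615-105929403 (minus) for Atrx and chr15:8290617-8444463 (minus) for Nipbl.
Gstp1: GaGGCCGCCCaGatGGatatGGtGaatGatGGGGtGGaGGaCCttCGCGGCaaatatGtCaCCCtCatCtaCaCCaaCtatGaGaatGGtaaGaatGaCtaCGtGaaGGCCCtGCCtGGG
Arf5: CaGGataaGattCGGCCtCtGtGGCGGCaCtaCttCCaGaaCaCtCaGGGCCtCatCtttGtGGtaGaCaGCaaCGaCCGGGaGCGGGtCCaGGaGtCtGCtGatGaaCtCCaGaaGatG
Atrx: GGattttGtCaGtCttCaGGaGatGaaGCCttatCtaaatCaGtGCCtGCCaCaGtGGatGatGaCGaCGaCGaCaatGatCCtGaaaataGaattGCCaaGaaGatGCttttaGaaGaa
Nipbl: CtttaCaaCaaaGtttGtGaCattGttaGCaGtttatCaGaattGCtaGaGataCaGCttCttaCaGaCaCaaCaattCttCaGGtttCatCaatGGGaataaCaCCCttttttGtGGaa
The stretches hold 64 G or C bases in Gstp1 (coding bases 256 to 375) and 67 in Arf5 (211 to 330), against 50 in Atrx (3655 to 3774) and 42 in Nipbl (4138 to 4257). Over the whole coding sequence the GC content was 55.2% for Gstp1 and 56.9% for Arf5, which are 630 and 540 bases long, and 40.9% for Atrx and 41.9% for Nipbl, which are 7428 and 8394 bases long.

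Length and GC content went with the log2 difference across genes as well. Exon length here is the summed length of all annotated exons of a gene, and 9342 members had one. In the quintile of genes with the shortest exons (62 to 2329 bases) the median log2 difference was 1.03, with 68.8% called higher and 10.6% lower. In the quintile with the longest (7571 bases and over) it was -0.52, with 18.1% called higher and 53.7% lower. By GC content of the exons the medians rose from -0.78 in the poorest quintile (31.0 to 44.1%) to 0.88 in the richest (55.9 to 82.9%). Gene span, introns included, gave 0.95 for the shortest and -0.45 for the longest quintile. In the cross of both features the 606 short and GC-rich genes had a median of 1.39, and 29 of them were called lower. The 621 long and GC-poor genes had a median of -1.20, and 47 of them were called higher. At a like level the order stayed. Among genes with a mean of 4 to 16 RPKM over the nuclear columns the median was 1.30 in the shortest and -0.11 in the longest quintile. That level comes from the same columns as the difference. These are descriptions over genes, which are not replicates. The quintiles include the genes that 1 column alone admits and that had to differ, more of them through the no-dox column (1198) than through the dox-labelled one (592). Medians by feature without those genes were not computed. Features of the sequence such as these can also move with library preparation, whose part in the difference was not tested.

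**Figure D3:**
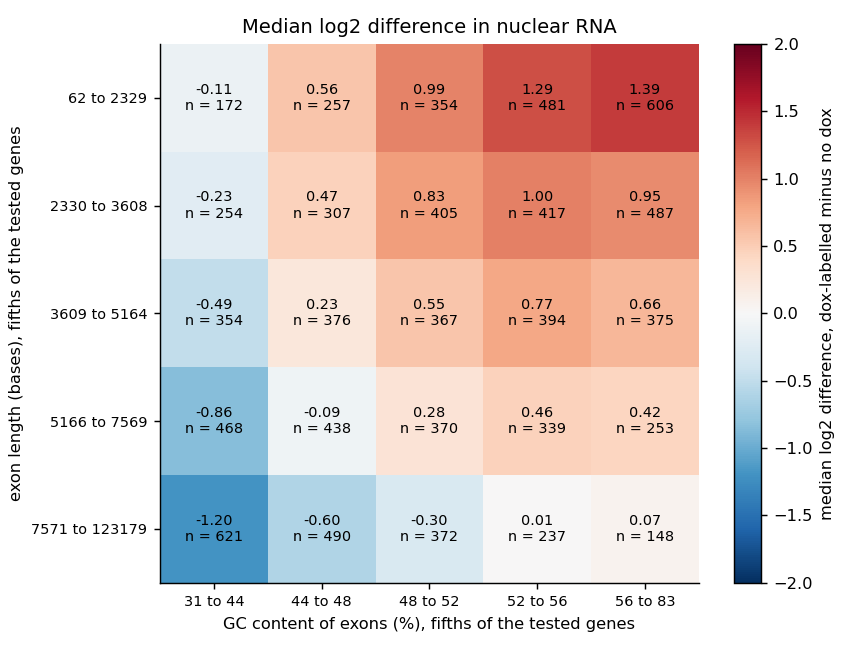
Colour and upper number give the median log2 difference of the genes in each cell of exon length quintiles (y axis, bases) by GC content quintiles (x axis, %), with the number of genes below. The medians fall from 1.39 at the upper right, short and GC-rich, to -1.20 at the lower left, long and GC-poor.

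Genes were then sorted into 81 lists by function or symbol family, which hold 3654 of the tested genes. In 53 lists more members rose than fell, in 27 more fell, and in 1 the numbers were equal. Against that stand the shares of all genes, 46.1% higher and 26.3% lower, and the median of 0.34. In each list below, a share near these is not a result about the list. The median of all genes was 0.45 at 1 RPKM in both columns and 0.07 after quantile normalization. With trends on exon length and GC content removed it was 0.49, with 4742 genes called higher and 1222 lower. A list median that turned above 0 in such a fit can still lie below that of all genes. Directions of medians are given under the deposited scaling; where another scaling or the removal of trends turned one, this is said beside it.

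**Figure D4:**
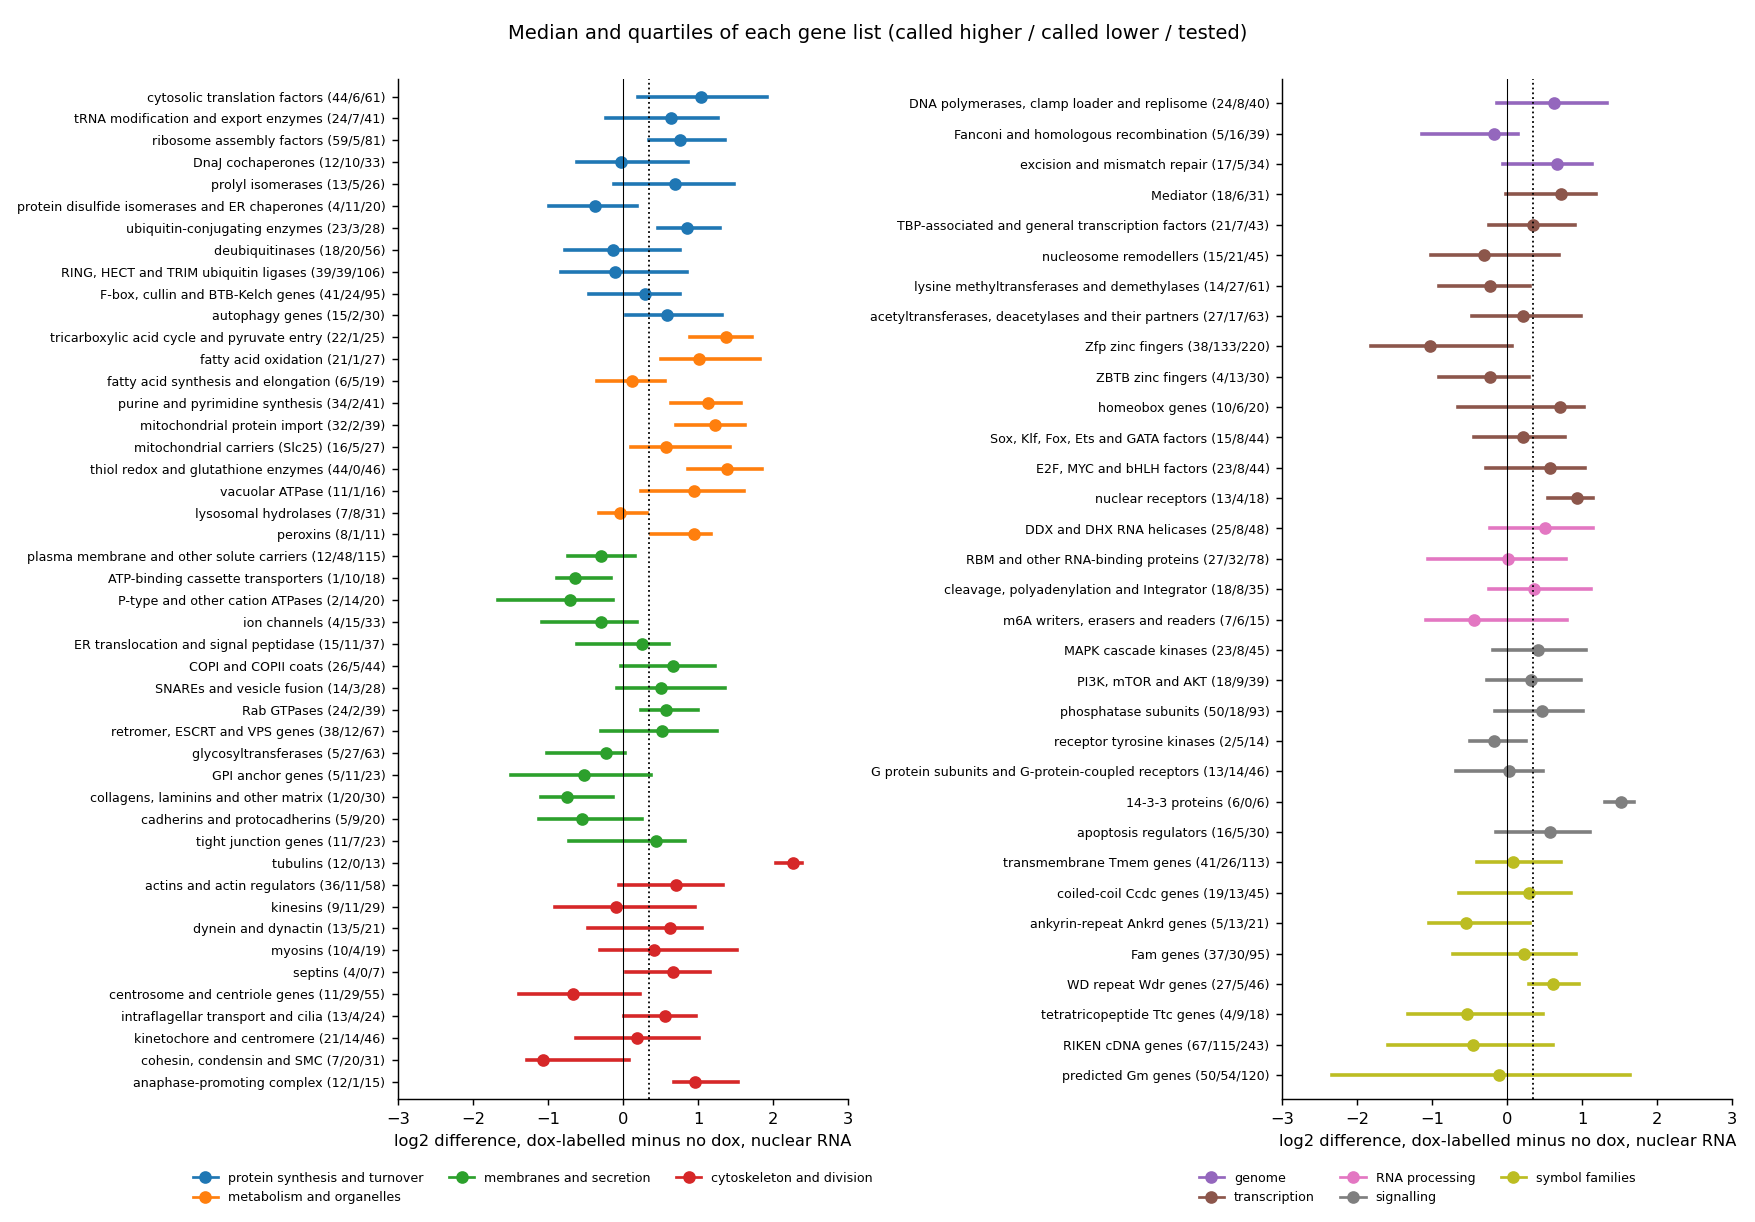
Circles give the median log2 difference of each of 79 of the 81 gene lists and bars its quartiles, coloured by role, with the numbers called higher, called lower and tested after each name; the dotted line is the median of all genes. Tubulins lie farthest right at 2.27 and cohesin, condensin and SMC genes farthest left at -1.07. The latter median turns to 0.41 once exon length and GC trends are removed, where that of all genes is 0.49. Median signs differ for 13 lists after centring, 10 after quantile normalization and 16 after removal of both trends.

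Enzymes of central metabolism rose nearly as groups, with smaller medians after quantile normalization for most of these lists. Of 46 thiol redox and glutathione enzymes, which keep proteins and small molecules reduced, 44 rose and 0 fell, with a median of 1.39. After quantile normalization 34 rose and 2 fell (median 0.87). Besides Gstp1, the peroxidase Prdx2 rose from 8.15 to 41.9 RPKM (log2 2.36, SE 0.140). Gclc, which starts glutathione synthesis, had 2.77 and 2.84 RPKM and did not pass. Of 25 genes of the tricarboxylic acid cycle and pyruvate entry, 22 rose and 1 fell, with a median of 1.38 (20 and 3 after quantile normalization, median 0.76). Sdhc, a membrane subunit of succinate dehydrogenase, went from 7.61 to 38.5 RPKM, and Suclg1, a subunit of succinyl-CoA ligase, from 4.09 to 17.2 RPKM. The 1 that fell was Dld, the dihydrolipoamide dehydrogenase of the 2-oxo acid complexes, from 5.10 to 3.87 RPKM (adjusted p = 0.0326).

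The same picture held for nucleotide synthesis and mitochondrial import. Of 41 purine and pyrimidine genes 34 rose and 2 fell (median 1.13), which became 25 and 4 (median 0.57) after quantile normalization. Impdh2, the rate-limiting step to guanine nucleotides, rose from 10.99 to 45.4 RPKM and Aprt, an adenine salvage enzyme, from 14.2 to 58.5 RPKM. The hypoxanthine salvage enzyme Hprt fell from 5.63 to 2.55 RPKM. Of 39 genes of mitochondrial protein import 32 rose and 2 fell (median 1.23), which became 23 and 4 (median 0.58) after quantile normalization. Samm50 of the outer membrane went from 10.7 to 48.9 RPKM. Of 27 genes of fatty acid oxidation 21 rose and 1 fell (median 1.02), and likewise 21 and 1 after quantile normalization (median 1.00). Among them Acads, a short-chain acyl-CoA dehydrogenase, rose from 3.05 to 17.4 RPKM. Fatty acid synthesis and elongation was mixed, with 6 higher and 5 lower of 19 (3 and 9 after centring) and a median of 0.12 that became -0.22 after centring, -0.27 after quantile normalization and -0.02 without the length trend. There Mcat, the mitochondrial malonyltransferase, rose from 1.11 to 6.46 RPKM while Elovl6, an elongase, fell from 7.17 to 2.49 RPKM. Of 31 lysosomal hydrolases 7 rose and 8 fell, and after centring 1 rose and 14 fell.

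In protein synthesis more genes rose than fell, by a margin that shrank after quantile normalization, and protein turnover was split. Of 61 cytosolic translation factors 44 rose and 6 fell, with a median of 1.03. After quantile normalization these numbers were 28 and 16, with a median of 0.28. Eif4a2, a helicase of the cap-binding complex, fell from 50.9 to 17.9 RPKM (log2 -1.51, SE 0.103, adjusted p = 1.52e-08). Of 81 ribosome assembly factors 59 rose and 5 fell (median 0.76), which became 33 and 16 (median 0.19) after quantile normalization. Fbl, the fibrillarin that methylates ribosomal RNA, rose from 12.8 to 58.2 RPKM, and Nol8 fell from 4.73 to 1.71 RPKM. Of 28 ubiquitin-conjugating enzymes, which hand ubiquitin to ligases, 23 rose and 3 fell (median 0.86), with Ube2s, an enzyme of the anaphase-promoting complex, going from 37.6 to 142 RPKM.

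Ubiquitin ligases and deubiquitinases were split. Of 106 RING, HECT and TRIM ligases 39 rose and 39 fell (29 and 53 after centring), with a median of -0.11. It became 0.30 once the exon length trend was removed and 0.06 over the members at 1 RPKM in both columns. Relative to the median of all genes in the same fits these were -0.06 and -0.39. Rnf187 rose from 6.97 to 32.8 RPKM, and Ube3a, a HECT ligase, fell from 8.44 to 2.01 RPKM (log2 -2.07, SE 0.189). The ligases that rose had a median exon length of 3709 bases and those that fell of 8521. Of 56 deubiquitinases 18 rose and 20 fell (14 and 31 after centring), with a median of -0.13. It became 0.33 without the length trend and 0.01 over the members at 1 RPKM in both columns, or -0.04 and -0.44 relative to all genes. Usp5, which takes apart free ubiquitin chains, rose from 17.0 to 66.5 RPKM, and Usp34 fell from 6.99 to 1.83 RPKM. Of 20 disulfide isomerases and chaperones of the endoplasmic reticulum (ER) 4 rose and 11 fell, with a median of -0.37 (0 and 15 after quantile normalization). Hsp90b1, the ER form of the chaperone HSP90, fell from 79.4 to 28.4 RPKM (log2 -1.48, SE 0.122, adjusted p = 9.72e-08).

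Several families of membrane proteins had medians below 0. Of 115 solute carriers other than the mitochondrial ones 12 rose and 48 fell, with a median of -0.30 (2 and 68 after centring), while of 27 mitochondrial carriers (Slc25) 16 rose and 5 fell, with a median of 0.58 (11 and 6 after centring). Slc25a5, an ADP/ATP carrier, rose from 22.8 to 106 RPKM. Slc12a2, the sodium-potassium-chloride cotransporter, fell from 4.01 to 1.24 RPKM. Slc2a3, a glucose transporter and the most abundant member within 0.1 of no difference, had 74.9 and 78.1 RPKM (adjusted p = 0.627). Of 20 cation ATPases 2 rose and 14 fell (median -0.70), with Atp2b1, a calcium pump of the plasma membrane, going from 5.09 to 1.38 RPKM. The proton pump of vesicles, the vacuolar ATPase, went the other way, with 11 of 16 higher, 1 lower and a median of 0.95 (8 and 2 after quantile normalization). Of 18 ATP-binding cassette transporters 1 rose and 10 fell, with a median of -0.63. It became 0.09 once the length trend was removed, or -0.27 relative to all genes. Abca1, which exports cholesterol, fell from 6.39 to 1.93 RPKM.

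In lists of genes for the cell surface and the matrix more members fell than rose, except among tight junction genes. Of 23 tight junction genes 11 rose and 7 fell (6 and 10 after centring), with a median of 0.43 that was -0.17 after quantile normalization. Of 30 collagens, laminins and other matrix genes 20 fell and 1 rose, with a median of -0.75. Without the length trend 8 fell and 2 rose, with a median of -0.14. Fn1, fibronectin, fell from 53.1 to 23.4 RPKM (log2 -1.18, SE 0.144, adjusted p = 4.65e-06), and Sparc, a secreted matrix protein, rose from 19.1 to 23.2 RPKM (adjusted p = 0.0449). Of 63 glycosyltransferases 27 fell and 5 rose (median -0.23), and after centring 41 and 2. Over those at 1 RPKM in both columns 17 fell and 4 rose (median -0.14). Of 23 genes of the GPI anchor 11 fell and 5 rose (13 and 1 after centring), with a median of -0.52. That median became 0.17 over those at 1 RPKM in both columns, of which 5 fell and 5 rose. Relative to all genes at that limit it was -0.28. Of 20 cadherins and protocadherins 9 fell and 5 rose (13 and 2 after centring), with a median of -0.55. That median became 0.14 once the length trend was removed, or -0.23 relative to all genes. Over those at 1 RPKM in both columns 5 fell and 4 rose, with a median of -0.13. Fat1, a giant cadherin, fell from 24.8 to 9.38 RPKM and Jup, the catenin plakoglobin, rose from 7.50 to 17.6 RPKM. By contrast the traffic machinery rose more than it fell: 24 of 39 Rab GTPases rose and 2 fell (median 0.58), and 26 of 44 coat genes (COPI and COPII) rose and 5 fell (median 0.67). After centring the first numbers were 15 and 6, and after quantile normalization the second were 18 and 11. Rab1b, which acts between ER and Golgi, went from 4.56 to 20.3 RPKM, and Lman1, a cargo receptor of the ER, fell from 11.9 to 6.06 RPKM.

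Of 13 tubulins 12 rose and 0 fell, and the median of 2.27 was the largest of the 81 lists under the deposited scaling. After quantile normalization 11 rose and 0 fell, and the median of 0.80 was no longer the largest. Tubb3, a beta-tubulin used as a neuronal marker, rose from 5.67 to 32.1 RPKM, and Actb, beta-actin, from 222 to 1219 RPKM, a difference that quantile normalization took to 0.00. Members of such families are similar in sequence, and how shared reads were counted is not given in the sources used here. All 6 of the 14-3-3 proteins, adaptors that bind phosphorylated partners, rose (median 1.52), with Ywhae going from 30.4 to 116 RPKM. Of 15 genes of the anaphase-promoting complex 12 rose and 1 fell (median 0.96), among them its activator Cdc20, from 15.4 to 53.9 RPKM. Of 29 kinesins 9 rose and 11 fell, which became 8 and 16 after centring and 14 and 3 once length and GC trends were removed. Kif22, a chromosome-arm motor, rose from 8.01 to 23.4 RPKM, Kif20b fell from 6.79 to 1.76 RPKM, and Kifc1 had 32.4 and 31.7 RPKM.

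Most genes of the chromosome rings and of centrosomes fell, but not once trends on length and GC content were removed. Of 31 cohesin, condensin and SMC genes, whose ring complexes hold and fold chromosomes, 20 fell and 7 rose, with a median of -1.07. Once length and GC trends were removed 5 fell and 14 rose, with a median of 0.41. That was -0.08 relative to all genes, whose median in that fit was 0.49. Smc5 fell from 4.47 to 1.45 RPKM, while Nsmce1, a small subunit of the same SMC5/6 complex, rose from 2.87 to 13.2 RPKM. Of 55 centrosome and centriole genes 29 fell and 11 rose, with a median of -0.66. That median became 0.18 without both trends (7 lower, 16 higher), or -0.32 relative to all genes. Over those at 1 RPKM in both columns it was -0.09 (11 lower, 8 higher). Pcm1, a scaffold of centriolar satellites, fell from 7.93 to 2.12 RPKM. Kinetochore genes had 21 higher and 14 lower of 46 (15 and 17 after quantile normalization), with a median of 0.19 that was -0.15 after centring and -0.03 after quantile normalization. Cenpf and Cenpe, very large kinetochore proteins, fell from 10.4 to 2.52 and from 5.39 to 1.35 RPKM, whereas the mitotic kinase Aurka rose from 5.78 to 22.1 RPKM.

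Of 40 replication genes 24 rose and 8 fell (median 0.63; 18 and 10 after centring), with the small polymerase subunit Pold2 going from 5.30 to 29.7 RPKM and the catalytic subunit Pola1 falling from 11.3 to 4.26 RPKM. Of 34 genes of excision and mismatch repair 17 rose and 5 fell (median 0.67; 13 and 8 after centring), a share of 50.0% higher that lies near the 46.1% of all genes, and Apex1, the main abasic site endonuclease, rose from 18.6 to 70.7 RPKM. Of 39 genes of the Fanconi pathway and homologous recombination 5 rose and 16 fell (2 and 21 after centring), with a median of -0.18. That median became 0.25 without both trends (12 higher, 6 lower), or -0.24 relative to all genes. Over members at 1 RPKM in both columns 5 rose and 8 fell, with a median of -0.06. In that list H2afx, the histone variant marked at breaks, rose from 36.9 to 224 RPKM, and Blm, a helicase, fell from 4.24 to 1.41 RPKM.

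Among regulators of transcription the Zfp zinc finger genes were the largest family described, and most of them fell. Of 220 Zfp zinc finger genes, many of which code for repressors of transposable elements, 133 fell and 38 rose, with a median of -1.02. Many passed the limit of 1 RPKM through the no-dox column alone: over those at 1 RPKM in both columns the median was -0.13, with 46 lower and 32 higher. The members that fell had a median GC content of 40.6% and those that rose 56.9%. Zfp296, a zinc finger protein of ESC, rose from 6.82 to 22.5 RPKM (log2 1.72, SE 0.112). Near-identical zinc finger genes lie in clusters, so reads may be shared among them. Of 61 lysine methyltransferases and demethylases 14 rose and 27 fell (10 and 33 after quantile normalization), with a median of -0.23. It became 0.33 without the length trend and 0.02 over those at 1 RPKM in both columns, or -0.03 and -0.43 relative to all genes. Ehmt2, a histone H3 methyltransferase, rose from 9.87 to 30.8 RPKM and Setd2, another, fell from 7.31 to 1.61 RPKM. Of 45 nucleosome remodellers 15 rose and 21 fell (9 and 26 after centring), with a median of -0.32. It became 0.49 without the length trend, or 0.13 relative to all genes. Next to Atrx, Chd6 fell from 5.54 to 1.07 RPKM, and Smarcb1, a core subunit of the BAF complex, rose from 10.03 to 43.3 RPKM.

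Factors of pluripotency and other DNA-binding families held genes that rose and genes that fell. Of 20 homeobox genes 10 rose and 6 fell. Pou5f1, which codes for OCT4, rose from 63.2 to 326 RPKM (log2 2.37, SE 0.114, adjusted p = 7.87e-10), while Pou2f1 fell from 6.57 to 1.65 RPKM. Of 18 nuclear receptors 13 rose and 4 fell (median 0.93). Esrrb, a receptor of naive ESC, rose from 24.9 to 62.6 RPKM, and Nr5a2 fell from 3.81 to 1.79 RPKM. Of the ESC markers Utf1 rose from 33.5 to 149 RPKM, Tdgf1 fell from 35.9 to 23.8 RPKM and Dppa4 had 13.4 and 12.9 RPKM. Over all 10 of these markers 6 rose and 1 fell, with a median of 0.61. After quantile normalization 2 rose and 6 fell, with a median of -0.55. The median was -0.002 without the length trend and 0.32 without both trends. Of 31 Mediator genes 18 rose and 6 fell (median 0.72).

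RNA-processing genes were split along the same lines of length and GC content. Of 78 RBM and other RNA-binding proteins 27 rose and 32 fell (20 and 40 after quantile normalization), with a median of 0.01 that was -0.33 after centring, -0.49 after quantile normalization and 0.78 without both trends. Those that rose had a median GC content of 52.5% and those that fell 42.4%. Puf60, a splicing factor, rose from 7.48 to 37.2 RPKM, and Rbm26 fell from 14.1 to 3.79 RPKM (log2 -1.90, SE 0.133). Of 48 DDX and DHX helicases 25 rose and 8 fell (median 0.51; 20 and 16 after centring), with Ddx39, of mRNA export, going from 19.2 to 79.1 RPKM. Of 35 genes of cleavage, polyadenylation and the Integrator complex 18 rose and 8 fell (11 and 13 after quantile normalization), with a median of 0.35 that was -0.19 after quantile normalization. Pcf11, a factor of transcription termination, fell from 4.67 to 1.22 RPKM and Ints11, the Integrator endonuclease, rose from 3.91 to 15.1 RPKM.

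Of 39 genes around PI3K, mTOR and AKT 18 rose and 9 fell, with a median of 0.32 that was -0.02 after centring (14 and 13). The shares, 46.2% higher and 23.1% lower, lie near those of all genes. Lamtor1, which anchors mTOR regulators on lysosomes, rose from 4.999 to 15.95 RPKM. Rictor, a subunit of mTORC2, fell from 3.66 to 1.10 RPKM, while Rptor, of mTORC1, had 5.84 and 6.13 RPKM. Of 93 phosphatase subunits 50 rose and 18 fell (median 0.46; 37 and 26 after centring), led by the catalytic subunit Ppp1ca, from 15.3 to 91.1 RPKM.

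Length and GC content also divided members within lists. In 64 lists at least 3 members rose and at least 3 fell. The falling members had the longer median exon length in 62 of these lists and the lower median GC content in 63. Removal of both trends also turned the sign of single genes named above: Dld had 0.58 in that fit, Ube3a 0.85, Usp34 0.23, Lman1 0.09, Smc5 0.08, Pola1 0.04 and Rictor 0.20, of which Dld and Ube3a were then called higher. Sparc turned to -0.06 after centring and to -0.71 after quantile normalization. Of the genes named as having no call, Slc2a3, Kifc1 and Dppa4 were called lower after centring and after quantile normalization, and Rptor after the latter. With the length trend removed, or both trends, Slc2a3 and Rptor were called higher and Kifc1 and Dppa4 lower.

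By class of gene, the 8951 protein-coding members had a median of 0.36, with 4218 higher and 2257 lower. Of 74 processed pseudogenes, intronless copies of messenger RNAs, 60 were called higher and 8 lower, with a median of 1.68. Reads of such copies cannot be told apart from those of their parent genes with certainty. Of 14 unprocessed pseudogenes 11 were called lower and 1 higher, but 10 of them pass 1 RPKM in 1 column only. Long intergenic RNAs and antisense RNAs were mostly called lower, 46 of 59 and 39 of 51, with medians of -1.55 and -1.34. Many of these had to differ, since 1 column alone admits them: at 1 RPKM in both columns 20 of 30 and 11 of 16 were called lower, with medians of -0.79 and -0.72. Without knowing whether counting used strand, antisense RNAs and the genes opposite them are not separable. The 45 miRNA genes had a median residual SD of 3.48 on the log2 scale, against 0.189 for protein-coding genes, and 8 were called higher and 15 lower, or 4 and 1 of the 11 at 1 RPKM in both columns. Libraries for long RNA do not measure mature miRNAs. The 69 snoRNA genes had 12 called higher and 14 lower.

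Chromosome medians differed and the differences shrank with the feature trends removed. The lowest was -0.11 for chromosome 18 (230 genes) and the highest 0.59 for chromosome 7 (745 genes), next to 0.58 for chromosome 11 (790 genes) and 0.55 for chromosome 19 (319 genes). Chromosomes 7 and 18 had median GC contents of 53.3% and 46.6%. The medians spanned 0.702 as deposited and 0.214 with trends on exon length and GC content removed, from 0.36 for chromosome 12 to 0.57 for chromosome 5. The median of all genes was 0.49 in that fit. Chromosome 8, with a median of 0.45 over 563 genes, and the X chromosome, with 0.15 over 269, lay inside the range of the others.

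**Figure D5:**
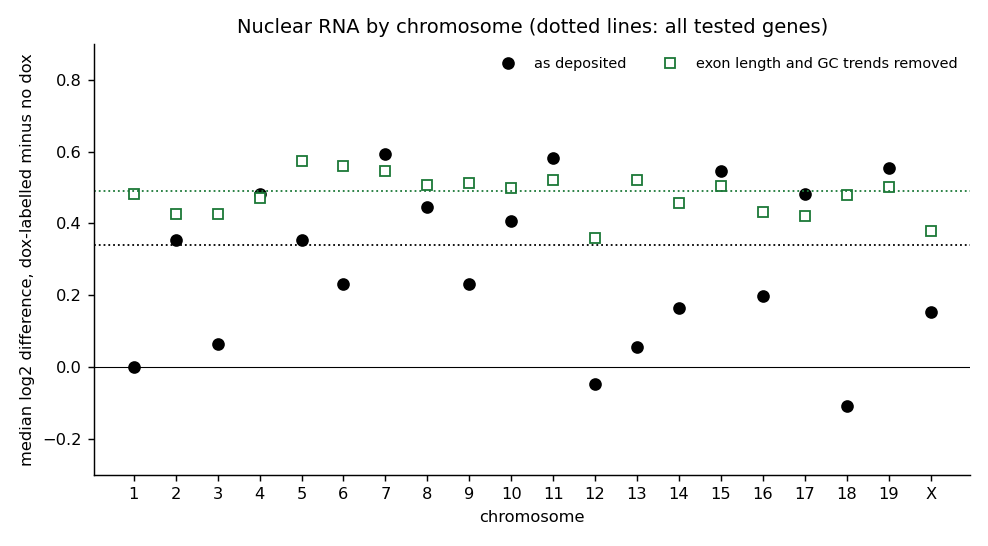
Median log2 difference in nuclear RNA for the genes of each chromosome (x axis), as deposited (circles) and with trends on exon length and GC content removed (squares); dotted lines are the medians of all genes, 0.34 and 0.49. The circles span 0.702 and the squares 0.214.

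Total RNA of the same kind of cell gave similar calls. There 44.3% of the same 9395 genes were called higher and 22.9% lower, with a median of 0.31. Of the genes called in nuclear RNA, 3742 were called higher and 1907 lower in both kinds of RNA. Both tests used the same residual SD of each gene, so the shared calls are not independent. The difference of the effects was tested itself: limma called 0 genes, 1302 genes had an unadjusted p below 0.05, and 898 of these were more positive in nuclear RNA. That count depended on the genes tested and the scaling: it was 71 more positive and 11 more negative among genes of at least 1 RPKM in both columns, 127 and 11 at 5 RPKM, and 125 and 49 after quantile normalization. The smallest adjusted p was 0.0543, for Fth1, the heavy chain of ferritin, which stores iron. Fth1 rose from 21.4 to 89.7 RPKM in nuclear RNA (log2 2.07) and from 33.9 to 75.6 RPKM in total RNA (log2 1.16). Polr2j, a small subunit of RNA polymerase II, went from 2.41 to 6.25 RPKM in nuclear RNA and had 4.69 and 4.49 RPKM in total RNA (adjusted p of the difference 0.0657). Both were named for their small p of this difference, after their values were seen.

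Called in opposite directions were 7 genes, 3 higher in nuclear and lower in total RNA and 4 the other way, named because they are so few. Tmbim4 rose from 1.65 to 2.62 RPKM in nuclear RNA and fell from 5.08 to 3.55 RPKM in total RNA. Pfkfb1 and Mir762 had the same pattern, the latter with 0.0674 and 3.67 RPKM in nuclear RNA and an SE of 2.30. Irf9, a factor of the interferon response, fell from 2.48 to 1.65 RPKM in nuclear RNA and rose from 3.22 to 6.11 RPKM in total RNA (adjusted p of the difference 0.0657). Ddx17, Ppih and 1700061G19Rik shared that pattern, with nuclear log2 differences of -0.26, -0.50 and -0.53; that of Ddx17 became 0.29 without the length trend. None of the 7 passed the test of the difference.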

How the data were processed

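The labels describe 12 RNA-seq libraries, 3 in each of 4 groups, made with a directional kit after depletion of ribosomal RNA. Per the submitters' processing notes reads were handled with TopHat and bcl2fastq 2.17.1 on mm10, while the annotation, the counting rule and its use of strand are not given in the sources used here. The authors computed RPKM in Partek 6.6, per the file headers, and deposited 1 table of 19716 genes with the mean log2(RPKM + 0.001) of each group. The authors' p-value and q-value come from an ANOVA in the same program, per the file headers. The deposited ratio and signed fold columns restate the differences of those means, within 3.91e-05 on the log2 scale for the ratio. The fold is a deposited score with its sign, since falls are written as negative folds, and it was used only for that check. No column held a single library, so no mean has an SD or an n of its own.

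The residual SD of each gene was recovered from pairs of deposited p-values with 6 residual degrees of freedom, to within 0.001 on the log2 scale. The same p-values gave the number of libraries behind each mean, 10 in all; which 2 of the 12 labelled libraries were not in the means could not be read. Steps between low RPKM values gave the depth. The design foresaw a test on single values where the table held them; the test run in its place was limma 3.58.1 (R 4.3.3) on the group means with the recovered SDs and a trend in the prior, over the 9395 genes with at least 1 RPKM in either nuclear column. Calls are at a Benjamini-Hochberg adjusted p below 0.05 over all of them. In a test on simulated data for this comparison with 9395 genes, 67% of the log2 changes of 1 and 96% of those of 2 were called, and 8 of 171 calls were unchanged genes.

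Exon length, GC content and class came from GENCODE M21 for 9342 genes, 9226 matched by symbol and 116 by RefSeq synonym. Trends on these were removed by loess. Promoter sequences are not used here, since fewer than 80% of the tested genes matched. Named genes are Ago2, the 10 largest rises and falls among called genes of at least 1 RPKM in both nuclear columns outside the excluded lists, up to 2 called members each way and 1 without a call in each list, the largest in each tier, the 5 highest means and the genes beside the threshold. Malat1 and the other genes with a ratio of nuclear to total RPKM are given to check the fraction. The genes on the difference of nuclear and total RNA were chosen after their values were seen. The members and lists were chosen with earlier results of these data known, and 22 names were taken out of lists by name after values were seen. The results of 2 lists and of some single genes are not reported here. Alternatives tried were other filters, pseudocounts, scalings, variances, the authors' own p-values and q-values, and removal of feature trends.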

Additional observations from a re-analysis of the deposited data

How the results depend on the processing

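No paired analysis was possible because the deposited columns are group means and carry no replicate numbers. For the same reason leaving out each replicate and DESeq2 were not run. At 5 RPKM in either nuclear column 2851 genes were called higher and 648 lower, 330 at least 2-fold lower, with a median of 0.95. At 1 RPKM in both columns 1459 were called lower and 592 at least 2-fold lower. With no filter 2664 were at least 2-fold lower and the median was -0.071. With a pseudocount of 1 RPKM 631 were at least 2-fold lower. At least 2-fold higher were 1666 genes after centring and 1683 after quantile normalization, which moved the median to 0.069. With trends on exon length and GC content removed 1222 genes were called lower and 513 at least 2-fold lower. For the difference between nuclear and total RNA the calls more positive in nuclear RNA numbered 9 with no filter, 127 at 5 RPKM, 71 at 1 RPKM in both columns and 125 after quantile normalization. Those more negative numbered 7, 11, 11 and 49 in that order, and 1 without moderation of variances. In each case a change of filter changes which genes are tested; for the other settings the cause was not tested.

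The log2 differences of these named genes changed sign or went to 0, where the gene was called under either setting. With both trends removed they became 0.18 for Ddx17, 0.58 for Dld, 0.090 for Lman1, 0.040 for Pola1, 0.20 for Rictor, -0.24 for Rmrp, -0.69 for Scarna2, 0.080 for Smc5, -0.0055 for Sparc, 0.85 for Ube3a and 0.23 for Usp34. With the length trend alone removed they became 0.29 for Ddx17, -0.16 for Rmrp and -0.51 for Scarna2. After quantile normalization they were 0.00 for Actb, -1.68 for Rmrp, -0.48 for Rptor, -2.19 for Scarna2, -1.50 for Slc2a3 and -0.71 for Sparc, and after centring -0.28 for Slc2a3 and -0.060 for Sparc. Below 0 but without a call in either setting, centring put Gclc at -0.31, Rn45s at -0.33 and Rptor at -0.27, and for Gclc so did quantile normalization (-0.12) and removal of the length trend (-0.098). Depth was 10.3 to 18.9 M reads a library. The median residual SD was 0.243 at 1 to 2 RPKM and 0.123 in the highest tier, and the part of depth in that was not tested.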
